A study of Mus musculus with 4 samples.

Results

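The MHC class II presentation genes described here are 10 genes chosen by name: H2-Aa, H2-Ab1 and H2-Eb1, which encode chains of the classical class II heterodimers, Cd74 (the invariant chain), Ciita (the class II transactivator), the H2-DM genes H2-DMa, H2-DMb1 and H2-DMb2, and the H2-O genes H2-Oa and H2-Ob. All 10 symbols were found among the 32285 genes of the deposited single-cell matrices. The study profiled cells of liver metastatic tumours of MC38, a mouse colon carcinoma line, in C57BL/6J mice, after bead selection for the leukocyte surface protein CD45 (gene Ptprc). It holds 4 libraries, 1 per combination of diet and tumour line: high-fat diet with the Yap knockdown derivative (HFD_shYap), high-fat diet with the WT line (HFD_WT), low-fat diet with the knockdown derivative (LFD_shYap) and low-fat diet with the WT line (LFD_WT). The knockdown is in the tumour line and not in the mice, which the titles call WT in every library. The age of the mice and the number of mice behind a library are not given in the sources used here. The design sets diet against tumour line, and so asks how each bears on the tumour's cells.

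A class II molecule is a pair of membrane chains that displays peptides from the endosomal pathway to CD4 T cells. The invariant chain occupies the groove of new heterodimers, endosomal proteases trim it to a short remnant, H2-DM exchanges that remnant for other peptides, and H2-O restrains H2-DM. Constitutive expression is a property of dendritic cells and B cells, whereas macrophages acquire it, classically after interferon gamma, through CIITA, a co-activator recruited by the factors that bind the X and Y boxes of these promoters.

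The 4 libraries held 9582 to 14779 barcodes and 106268471 to 144936859 UMIs each, and 38243 cells were kept. Between 33 and 63 barcodes were shared by any pair of libraries. The labels do not tie cells to mice, so a p-value here reflects the spread among 4 libraries and not among animals, and intervals of single libraries cover counting error only. LFD_shYap is low-fat by its title but high-fat by another label, the treatment field. Groups here follow titles, so all diet comparisons depend on that choice. Yap1, the gene targeted by the knockdown, was at 21.96 CPM (UMIs per 1000000 UMIs) in HFD_shYap, against 16.8 CPM in HFD_WT, and at 17.9 CPM in LFD_shYap, against 20.2 CPM in LFD_WT, in the Ptprc-low clusters 21 and 23. The HFD_shYap value rests on 125 UMIs from 137 cells, and cluster 23 scored highest for fibroblast or stellate cell markers. Over all kept cells, Yap1 was at 1.69 CPM in HFD_shYap and 2.80 CPM in HFD_WT. It was at 3.41 CPM in LFD_shYap and 4.27 CPM in LFD_WT. Yap1 was thus lower in the shYap library of each diet there, where cell numbers and level per cell cannot be told apart. Whether the knockdown held was not tested, and shYap below is a label only. HFD_shYap held 31551 Xist UMIs, against 2 to 7 in the others, beside Y-linked RNA at 103 CPM, against 110 to 123 CPM in the others. Its 4384 phagocytes comprised 1293 with Xist but no Y-linked UMI, 2055 with the reverse, 301 with both and 735 with neither.

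On the GRCm38 annotation, 8 of the 10 genes lie between 34092340 and 34316674 on chromosome 17, in the order H2-Oa, H2-DMa, H2-DMb2, H2-DMb1, H2-Ob, H2-Ab1, H2-Aa and H2-Eb1, of which H2-Aa is the one on the minus strand. Ciita lies on chromosome 16 (10480059 to 10528418). RefSeq promoter windows of GRCm38.p6, from 250 bases before to 50 after a start site, were matched for 7 members. The 150 bases before the start site are shown for 6 of them because they share an element. Capitals mark CCAAT on either strand (read as ATTGG on the other), the core of the Y box, ATGATGC, a stretch in the position of the X box, and, in H2-Aa, TGACGTCA, the cAMP response element that the X2 box resembles.
H2-Eb1, chr17:34305717-34305866, plus strand: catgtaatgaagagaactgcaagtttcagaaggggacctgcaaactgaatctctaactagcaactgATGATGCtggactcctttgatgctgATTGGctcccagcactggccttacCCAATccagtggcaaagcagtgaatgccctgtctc
H2-Aa, chr17:34287824-34287973, minus strand: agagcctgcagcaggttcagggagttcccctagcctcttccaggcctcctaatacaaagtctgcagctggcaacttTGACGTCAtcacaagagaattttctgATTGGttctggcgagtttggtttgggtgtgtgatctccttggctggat
H2-Ob, chr17:34238755-34238904, plus strand: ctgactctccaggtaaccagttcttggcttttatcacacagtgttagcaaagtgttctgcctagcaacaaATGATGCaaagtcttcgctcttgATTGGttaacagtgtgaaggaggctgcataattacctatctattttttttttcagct
H2-DMb1, chr17:34153041-34153190, plus strand: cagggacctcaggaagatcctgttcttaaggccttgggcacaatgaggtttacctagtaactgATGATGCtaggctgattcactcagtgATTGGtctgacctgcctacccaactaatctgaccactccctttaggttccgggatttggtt
H2-DMb2, chr17:34145099-34145248, plus strand: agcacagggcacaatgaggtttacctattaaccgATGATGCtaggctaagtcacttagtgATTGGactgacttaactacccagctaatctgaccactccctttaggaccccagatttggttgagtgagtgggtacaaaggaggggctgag
H2-Oa, chr17:34092229-34092378, plus strand: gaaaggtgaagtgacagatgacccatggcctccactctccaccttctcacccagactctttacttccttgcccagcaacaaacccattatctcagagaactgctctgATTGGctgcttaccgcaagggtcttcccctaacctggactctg
These 6 genes are shown because CCAAT starts between 100 and 30 bases before their start site, a range of positions chosen after the sequences were seen, so their count is fixed by that choice. The other matched member, H2-DMa, holds no CCAAT in that range in either of its windows. Of 32851 promoters of the same length, 15.9% do. Anywhere in the window, CCAAT was in 37.4% of promoters. ATGATGC, also chosen after the sequences were seen, was in H2-Eb1, H2-Ob, H2-DMb1 and H2-DMb2, 23 to 26 bases upstream of CCAAT counted from start to start, and in 2.46% of all promoters. TGACGTCA with up to 1 mismatch was found in H2-Aa, and in 12.5% of all promoters. A looser X box pattern, in which some bases are left free, was in 3 of 8 member windows and in 48.3% of all promoters. That pattern was thus not more frequent in the members. A match is a description of letters and not a binding site.

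Cd74, on chromosome 18 (60803848 to 60812652), is given no sequence here. Cells were grouped into 27 clusters from genes other than the members and their class II relatives, so the members' counts did not enter the clustering. Genes that vary with the members were not left out. The leading genes seen before naming included Cd74 in cluster 0, and H2-DMb2 and H2-Oa in cluster 19, the type 2 dendritic cells. The levels below describe cell types rebuilt from markers and carry no test between types. The summed level of H2-Aa, H2-Ab1 and H2-Eb1 (the classical chains) was highest in the conventional dendritic cells. In type 2 dendritic cells, named from Cd209a, Clec10a and related markers, it was 24545 CPM in HFD_shYap, 25944 CPM in HFD_WT, 30975 CPM in LFD_shYap and 24572 CPM in LFD_WT. In type 1 dendritic cells, named from Xcr1 and Clec9a, it was 21760.5, 22213, 23452 and 22007 CPM in the same order of libraries. The 4 libraries thus lay within a narrow band in both subsets, LFD_shYap being the highest in each. B cells were at 8160.4 CPM in HFD_shYap, 7643 CPM in HFD_WT, 7416 CPM in LFD_shYap and 7553 CPM in LFD_WT.

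Mature dendritic cells, which express Ccr7 and Fscn1, had 5435 CPM in HFD_shYap, 5992 CPM in HFD_WT, 3650.04 CPM in LFD_shYap and 4109 CPM in LFD_WT. Plasmacytoid dendritic cells had 10326 CPM in HFD_shYap from 5 cells, 4992 CPM in HFD_WT from 37 cells, 5746 CPM in LFD_shYap from 16 cells and 2812 CPM in LFD_WT from 19 cells. Mononuclear phagocytes, the macrophages and monocytes of 9 clusters, had 4345 CPM in HFD_shYap (exact 95% Poisson interval 4329 to 4362), 6439.6 CPM in HFD_WT (6422 to 6457), 2046 CPM in LFD_shYap (2036 to 2057) and 1225 CPM in LFD_WT (1216 to 1233). All 4 phagocyte intervals were apart from each other, and the range of phagocytes over libraries overlapped that of mature and plasmacytoid dendritic cells but not that of B cells or conventional dendritic cells.

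**Figure D1:**
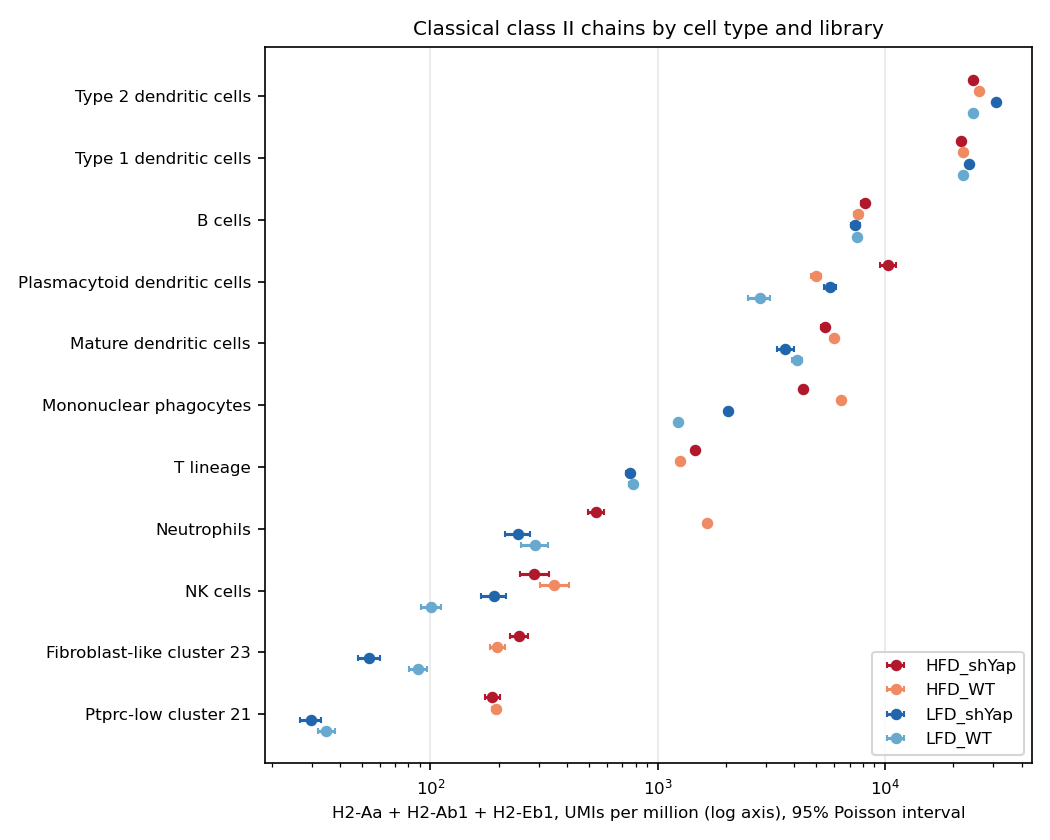
Summed level of H2-Aa, H2-Ab1 and H2-Eb1 in CPM (log axis) for each cell type and library; each point is 1 library and bars are exact 95% Poisson intervals. Type 1 and type 2 dendritic cells and B cells stay within a narrow band over the libraries, whereas phagocytes run from 1225 in LFD_WT to 6439.6 in HFD_WT.

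Cells that should not make class II gave the background. NK cells had 287 CPM of the classical chains in HFD_shYap, 351 CPM in HFD_WT, 190.3 CPM in LFD_shYap and 100.6 CPM in LFD_WT, which was 5.46% to 9.30% of the phagocyte level of the same library. The Ptprc-low cluster 21, led by Tm4sf1, Msln and Hmga2, was at 1.45% to 4.31% of it, with a summed phagocyte marker level of 2.03% to 3.87% of that of phagocytes. Neutrophils stood at 534 CPM in HFD_shYap, 1655 CPM in HFD_WT, 243 CPM in LFD_shYap and 288 CPM in LFD_WT, or 11.9% to 25.7% of phagocytes, with phagocyte markers at 14.7% to 36.6%. Summed over cells, neutrophils of HFD_WT thus stood above the phagocytes of LFD_WT. However, the 5% of HFD_WT neutrophils with most of these UMIs held 63.9% of them, and the median cell held 1. Whether free RNA is the source in these cells was not tested. The T lineage summed to 1457 CPM in HFD_shYap, 1253 CPM in HFD_WT, 755 CPM in LFD_shYap and 777 CPM in LFD_WT, most of it in a minority of cells. In T lineage cluster 7, 121 of 1646 cells had at least 10 UMIs of the classical chains and held 92.1% of these UMIs. Their median depth was 11380.0 UMIs, against 3211 in the other 1525. Csf1r, a macrophage receptor, was detected in 79.3% of them, against 20.98% of the others. C1qb, another phagocyte marker, was in 95.9% and 81.0%, so phagocyte RNA was also found in most of the others. Trac, a T cell receptor chain, was in 68.6%, against 50.9%.

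Ciita, the class II transactivator, was lower in phagocytes than in type 1 and type 2 dendritic cells or B cells. It was at 58.4 to 73.6 CPM in type 1 dendritic cells, 48.9 to 67.2 CPM in type 2 dendritic cells and 26.1 to 61.0 CPM in B cells over the 4 libraries, and at 8.70 CPM in HFD_shYap, 10.1 CPM in HFD_WT, 3.79 CPM in LFD_shYap and 3.32 CPM in LFD_WT in phagocytes. Mature dendritic cells held 4 Ciita UMIs in HFD_shYap (5.51 CPM), 5 in HFD_WT (7.33 CPM), 0 in LFD_shYap and 2 in LFD_WT (5.42 CPM). Where Ciita was detected in them, its level thus lay within the range of phagocytes, although from few counts. A count of 0 over the 145204 UMIs of LFD_shYap allows up to 20.7 CPM, taking 3 counts as the floor.

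Cells were thinned to 1000 UMIs each to compare shares of positive cells at 1 depth. At least 98.9% of type 1 and type 2 dendritic cells then held a UMI of the classical chains in every library, and 88.4% to 97.5% of B cells did. Of phagocytes, 59.1% did in HFD_shYap (exact Clopper-Pearson 95% interval 57.7 to 60.6), 72.4% in HFD_WT (71.3 to 73.6), 37.8% in LFD_shYap (36.6 to 39.1) and 28.0% in LFD_WT (26.8 to 29.1). NK cells, as a type that should lack class II, were at 12.3%, 28.4%, 8.93% and 6.98% in the same order. Neutrophils, also taken as background, were higher, at 41.2%, 50.8%, 20% and 20.9%. The phagocyte share stood above both types in each library, most narrowly in LFD_WT, at 28.0% against 20.9% in neutrophils. The median depth before thinning was 11932, 10460.5, 9756 and 8153 UMIs for phagocytes and 8407, 5725, 6712.5 and 9698.5 UMIs for NK cells, and the unthinned phagocyte shares were 92.8%, 96.9%, 75.1% and 63.0%. A positive phagocyte held 7.61 UMIs of the classical chains per 1000 in HFD_shYap, 9.90 in HFD_WT, 5.98 in LFD_shYap and 5.45 in LFD_WT, against 22.3 to 24.5 in type 1 dendritic cells and 25.4 to 33.2 in type 2 dendritic cells. A positive B cell held 8.61 to 9.71, a level close to that of a positive phagocyte of HFD_WT.

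Between HFD_WT and LFD_WT, the share of positive phagocytes differed 2.59-fold and the level per positive cell 1.81-fold at 1000 UMIs. Between HFD_shYap and LFD_shYap these were 1.56-fold and 1.27-fold. At 3000 UMIs per cell the same ratios were 1.98 and 2.36 for HFD_WT over LFD_WT, and 1.42 and 1.39 for HFD_shYap over LFD_shYap, so both the share and the level were higher in the high-fat library of each line at either depth, but which of the ratios was the larger depended on the depth for HFD_WT over LFD_WT, and was the share at both depths for HFD_shYap over LFD_shYap. Over phagocytes at 3000 UMIs, the median cell held 3 UMIs in HFD_shYap, 9 in HFD_WT, 1 in LFD_shYap and 0 in LFD_WT. Cells with at least 30 UMIs made up 16.8% in HFD_shYap, 28.9% in HFD_WT, 7.59% in LFD_shYap and 5.22% in LFD_WT. The tenth of phagocytes with most class II UMIs held 49.7% of them in HFD_shYap, 38.9% in HFD_WT, 69.5% in LFD_shYap and 78.7% in LFD_WT, so that in the low-fat libraries the RNA sat in a smaller part of the cells.

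**Figure D2:**
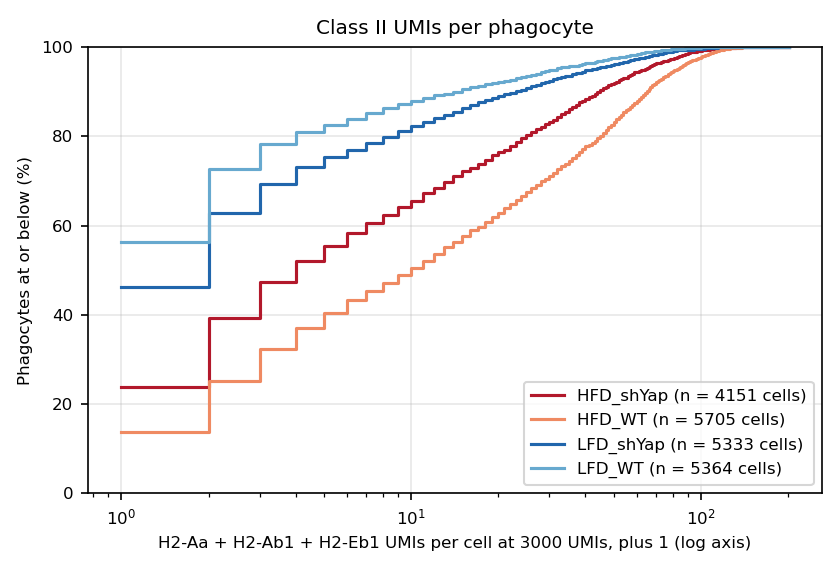
Share of phagocytes at or below a number of H2-Aa, H2-Ab1 and H2-Eb1 UMIs, after thinning to 3000 UMIs per cell (log axis, 1 added), 1 line per library. LFD_WT and LFD_shYap start highest, with 56.4% and 46.3% of cells at 0, against 23.8% in HFD_shYap and 13.8% in HFD_WT.

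Phagocytes with a Ciita UMI were rare and rich in class II RNA. At 3000 UMIs per cell they numbered 115 of 4151 in HFD_shYap, 185 of 5705 in HFD_WT, 63 of 5333 in LFD_shYap and 53 of 5364 in LFD_WT. Their mean of the classical chains was 37.0 UMIs in HFD_shYap, 47.4 in HFD_WT, 38.1 in LFD_shYap and 25.7 in LFD_WT, whereas phagocytes without a Ciita UMI had 12.96, 21.2, 6.54 and 4.54. In type 1 dendritic cells the means were 67.6 to 71.0 UMIs with and 65.2 to 73.5 without a Ciita UMI, so that the presence of a Ciita UMI did not mark a separate range there.

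In phagocytes, the high-fat libraries stood above both low-fat libraries for all 10 genes. Such an arrangement held for 17.4% of the 14197 genes tested in phagocytes. H2-Ab1 (beta chain of I-A) was at 1407 CPM in HFD_shYap and 2229.98 CPM in HFD_WT, against 673 CPM in LFD_shYap and 409 CPM in LFD_WT. H2-Aa (alpha chain of I-A) was at 1532 and 2073 CPM in HFD_shYap and HFD_WT, against 687 and 424 CPM in LFD_shYap and LFD_WT. H2-Eb1 (beta chain of I-E) was at 1407 and 2136 CPM in the same high-fat libraries, against 686 and 392 CPM in the low-fat ones. All of these are RNA levels, and whether any chain was paired into a heterodimer was not tested. HFD_WT was the highest and LFD_WT the lowest library for each of these chains, and the diets did not overlap.

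Of the 10 members, only Ciita passed the test for diet in phagocytes, with 8.70 and 10.1 CPM in HFD_shYap and HFD_WT, against 3.79 and 3.32 CPM in LFD_shYap and LFD_WT. Its log2 fold change was 1.35 ± 0.224 (SE, 4 libraries; edgeR quasi-likelihood test, adjusted p = 0.0492). By this test 0.296% of all genes were called higher and 0.113% lower, so 1 member of 10 was called. The margin is small and the call was lost under several other settings, among them without either high-fat library and with the diet of LFD_shYap taken from its treatment field. The log2 fold changes of the others were 1.71 ± 0.365 for H2-Ab1, 1.67 ± 0.329 for H2-Aa, 1.69 ± 0.368 for H2-Eb1 and 1.55 ± 0.381 for Cd74, with adjusted p of 0.128, 0.0958, 0.133 and 0.214 by edgeR. All 10 had an unadjusted p under 0.05, as had 885 of the 14197 genes. Any difference of the diet effect between the tumour lines counts as error in this model. A member that was not called is therefore not shown to lack a diet difference or to differ less than Ciita. The median over members was 1.22, against -0.01 over all genes tested.

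The peptide exchange genes differed less. H2-DMa (the alpha chain of H2-DM) was at 308 CPM in HFD_shYap and 376 CPM in HFD_WT, against 237 CPM in LFD_shYap and 221 CPM in LFD_WT, a log2 fold change of 0.52 ± 0.201 (edgeR adjusted p = 0.657). H2-DMb1 (a beta chain of H2-DM) was at 163 and 263 CPM in HFD_shYap and HFD_WT, against 102 and 85.6 CPM in LFD_shYap and LFD_WT (edgeR adjusted p = 0.189). H2-DMb2, H2-Oa and H2-Ob stayed under 8 CPM in every library, with log2 fold changes of 0.63, 0.85 and 0.78 and edgeR adjusted p of 0.455, 0.761 and 0.649. Cd74 was at 3732 CPM in HFD_shYap and 5622 CPM in HFD_WT, against 1935 CPM in LFD_shYap and 1183 CPM in LFD_WT, in the order of the classical chains. H2-DM UMIs per 100 UMIs of the classical chains were 11.002 in HFD_shYap and 10.0 in HFD_WT, against 16.8 in LFD_shYap and 25.5 in LFD_WT.

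**Figure D3:**
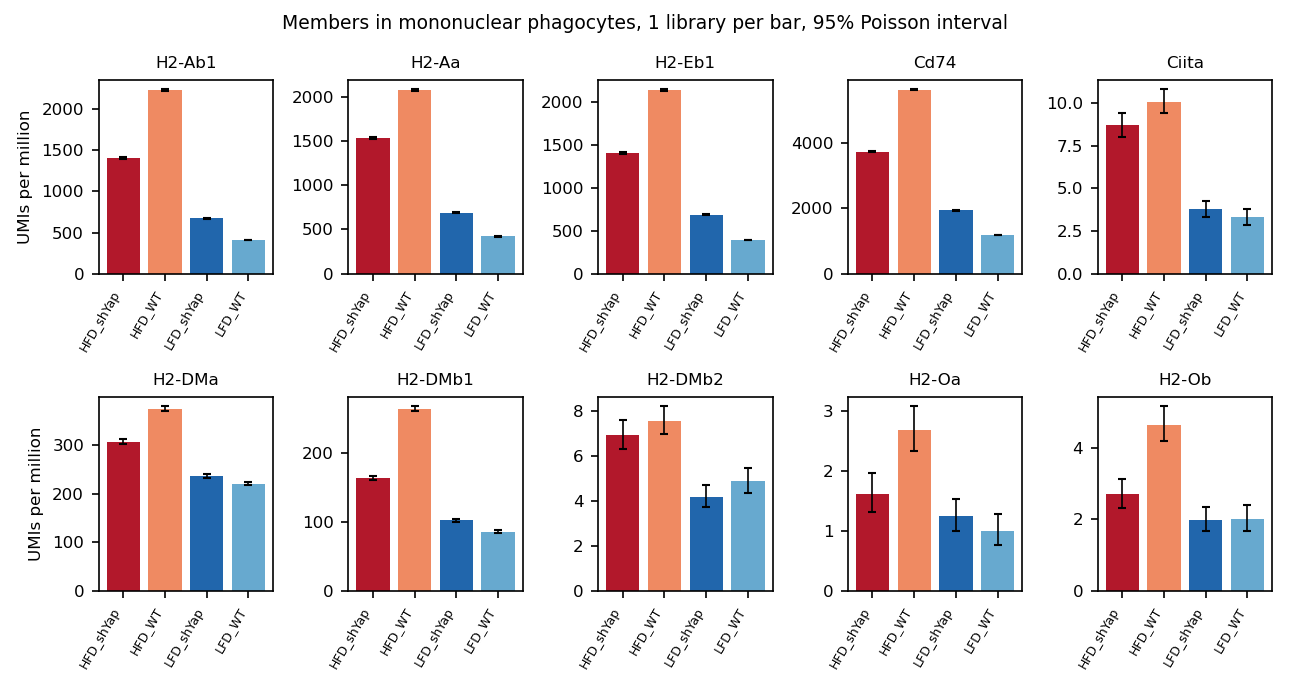
Level of each of the 10 members in mononuclear phagocytes, in CPM from 0, 1 bar per library with its exact 95% Poisson interval; each panel has its own scale. Both high-fat bars stand above both low-fat bars in every panel; for Ciita they are at 8.70 in HFD_shYap and 10.1 in HFD_WT, against 3.79 in LFD_shYap and 3.32 in LFD_WT.

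Single pairs of libraries, which have no replicate, gave the size within each tumour line. The classical chains were 5.26 times as high in HFD_WT as in LFD_WT (exact 95% interval of the ratio 5.22 to 5.30), and 2.12 times as high in HFD_shYap as in LFD_shYap (2.11 to 2.14). For Ciita the ratios were 3.04 (2.60 to 3.57) and 2.30 (1.98 to 2.66), for H2-DMb1 3.07 and 1.60, and for H2-DMa 1.70 and 1.30. HFD_shYap over HFD_WT was 0.675 (0.672 to 0.678) and LFD_shYap over LFD_WT 1.67 (1.66 to 1.69) for the classical chains, so the shYap libraries were lower under one diet and higher under the other. In the fit of tumour line in phagocytes, 0 of 10 members were called by edgeR, and 0 had an unadjusted p under 0.05 by edgeR; 0.00704% of genes were called higher, 0.0352% lower and 0.0423% in either direction. DESeq2 called 0 members for tumour line there. Member log2 fold changes for tumour line ran from -0.42 for H2-Ob to 0.12 for H2-Aa. The model averages over the diets and counts opposite directions under them as error. The fit therefore does not show that tumour line had no effect. In HFD_shYap, the classical chains were at 4883 CPM in phagocytes with Xist alone and 4015 CPM in those with Y-linked UMIs alone, both above both low-fat libraries.

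The phagocyte clusters differed in level and in their share of each library. Cluster 2, led by the interferon-inducible Cxcl9 and Ifit3, had 7753 CPM of the classical chains in HFD_shYap and 9797 CPM in HFD_WT, against 3262 CPM in LFD_shYap and 2083 CPM in LFD_WT. Cluster 0, led by Cwc25, Zmynd15 and Mmp19, had 4995 and 8222 CPM in the high-fat libraries, against 5477 CPM in LFD_shYap and 4538 CPM in LFD_WT. Cluster 3, led by Lyve1, Cbr2 and Folr2, was the lowest of the 9 in HFD_WT and LFD_WT, with 1608 CPM in HFD_shYap and 2091 CPM in HFD_WT, against 728 CPM in LFD_shYap and 454 CPM in LFD_WT. It held 8.37% and 4.66% of the phagocytes of HFD_shYap and HFD_WT, against 9.76% in LFD_shYap and 33.8% in LFD_WT. Cluster 0 held 30.04% and 29.4% in the high-fat libraries, against 12.2% in LFD_shYap and 7.44% in LFD_WT. Cluster 1, led by Fbxo32, Hspa1a and Jun, held 6.77%, 4.56%, 42.7% and 7.34% in HFD_shYap, HFD_WT, LFD_shYap and LFD_WT.

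Within clusters, HFD_WT was above LFD_WT in 9 of 9, by 1.81-fold in cluster 0 to 7.06-fold in cluster 14, which is led by Marco, Saa3 and Vsig4. HFD_shYap was above LFD_shYap in 8 of 9, the exception being cluster 0 with a ratio of 0.912 (0.902 to 0.922). The Kupffer-like cluster 20, led by Clec4f and Cd5l, had 5494 CPM in HFD_shYap from 56 cells and 4551 CPM in HFD_WT from 24 cells, against 2145 CPM in LFD_shYap from 86 cells and 751 CPM in LFD_WT from 51 cells. Splitting the difference of each pair into cluster shares and levels, 74.8% of the difference between HFD_WT and LFD_WT came from levels within clusters. It was 70.7% for HFD_shYap and LFD_shYap, 92.05% for HFD_shYap and HFD_WT, and 36.8% for LFD_shYap and LFD_WT. With the members allowed into the clustering these shares were 52.8%, 51.4%, 58.4% and 1.41%.

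**Figure D4:**
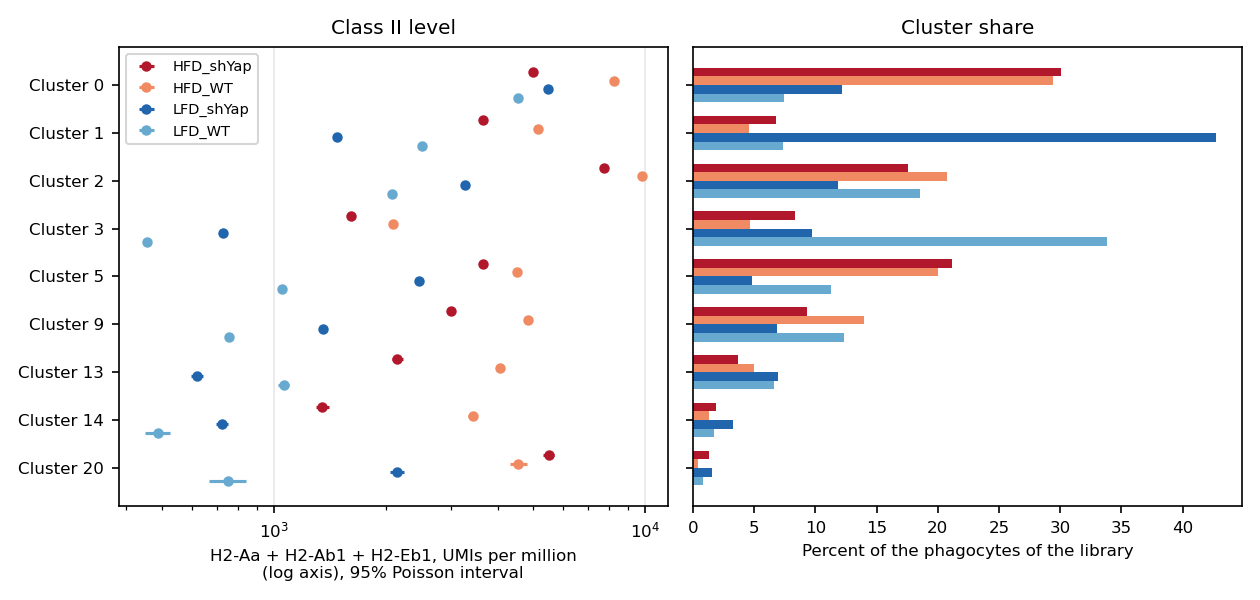
Left, summed H2-Aa, H2-Ab1 and H2-Eb1 in CPM (log axis, exact 95% Poisson intervals) in the 9 phagocyte clusters, 1 point per library. Right, share of the phagocytes of a library in each cluster, in percent; HFD_WT lies above LFD_WT in every cluster, while clusters 0, 1 and 3 differ most in share.

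Markers of other cell types were present in the phagocyte sums, and those of type 1 dendritic cells, mature dendritic cells and B cells were higher in both high-fat libraries than in both low-fat ones, as class II was. The 11 phagocyte markers summed to 43257 CPM in HFD_shYap and 50569 CPM in HFD_WT, against 74588 CPM in LFD_shYap and 62956 CPM in LFD_WT. The 7 markers of type 1 dendritic cells summed to 173 and 133 CPM in HFD_shYap and HFD_WT, against 109 and 130.3 CPM in LFD_shYap and LFD_WT, with none at 0 in all libraries. The 7 markers of mature dendritic cells summed to 100.7 and 89.3 CPM in HFD_shYap and HFD_WT, against 65.7 and 72.0 CPM in LFD_shYap and LFD_WT. The 7 markers of type 2 dendritic cells summed to 30.9 and 25.1 CPM in the high-fat libraries, against 33.4 and 35.0 CPM in the low-fat ones. The 9 B cell markers summed to 67.2 and 83.5 CPM in HFD_shYap and HFD_WT, against 56.5 and 53.6 CPM in LFD_shYap and LFD_WT. The part of these cells in the class II difference was not tested. Median phagocyte depth was also higher in the high-fat libraries (11932 and 10460.5 UMIs) than in the low-fat ones (9756 and 8153 UMIs).

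In dendritic cells of all 4 subsets, summed, none of the 10 members was called for diet. That is 0 by edgeR, with 0 members at an unadjusted p under 0.05 and 0 by DESeq2, while 0.539% of genes were called higher, 0.454% lower and 0.993% in either direction. Log2 fold changes ran from -0.19 ± 0.173 for Ciita to 0.03 ± 0.178 for H2-Ob. In B cells, 0 members were called for diet by edgeR, 0 had an unadjusted p under 0.05 and DESeq2 called 0; the background was 0.0% of 4184 genes. For tumour line the counts were 0 in dendritic cells (background 0.189% higher, 0.407% lower, 0.596% in either direction) and 0 in B cells (0.0239% higher, 0.0239% lower, 0.0478% in either direction) by edgeR, with 0 members at an unadjusted p under 0.05. These tests do not show that the levels were alike. The arrangement with both high-fat above both low-fat libraries held for 0 members in the summed dendritic cells (16.3% of genes) and 3 in B cells (24.6%). The opposite arrangement held for 2 members in the summed dendritic cells (13.6%) and 2 in B cells (10.2%). In mature dendritic cells alone, which were not tested, both high-fat libraries were above both low-fat ones for the summed classical chains. These were at 5435 CPM in HFD_shYap and 5992 CPM in HFD_WT, against 3650.04 CPM in LFD_shYap and 4109 CPM in LFD_WT. The mature cells numbered 21 to 79 per library, and the other subsets lacked this arrangement of the classical chains.

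Whether the diet difference itself differed between cell types was tested in a fit with the library as a block, added after the data were seen. The phagocyte log2 fold change exceeded that of dendritic cells for 9 of 10 members by edgeR at an adjusted p under 0.05, against 0.402% of all genes called higher and 0.0862% lower. The excess was 1.80 ± 0.169 for H2-Ab1 (edgeR adjusted p = 1.67e-06), 1.54 ± 0.178 for Ciita (3.90e-05) and 0.62 ± 0.125 for H2-DMa (0.0182), and 0.77 ± 0.179 for H2-Ob, which was not called (0.0614). With the treatment field of LFD_shYap, 0 of 10 were called in that fit. Against B cells, H2-Ab1, H2-Aa, H2-Eb1 and Cd74 were called by edgeR, 4 of 10 against 0.113% of all genes called higher and 0.015% lower, with an excess of 1.58 to 1.83 on the log2 scale. These p-values rest on 2 residual degrees of freedom among 4 libraries and on a spread shared across genes.

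Over all kept cells, where the number of cells of a type and the level per cell cannot be told apart, 0 of 10 members were called for diet by edgeR, where 0.0% of all genes were, although all 10 had an unadjusted p under 0.05, as had 9.73% of all genes. DESeq2 called 9 members, and 2.32% of all genes. The edgeR log2 fold changes of the classical chains there ran from 1.34 to 1.37. For tumour line over all kept cells, edgeR called 0 members, with 0 at an unadjusted p under 0.05, and DESeq2 called 0.

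The editing genes had a cell-type pattern of their own. H2-DMb2 and H2-DMb1 are neighbouring copies whose longest transcripts share 93.7% of aligned bases, so counting could misassign some reads between them, although their last 400 bases, where 3′ reads fall, share 58.7%. H2-DMb2 made up 4.08% of the H2-DMb UMIs in phagocytes of HFD_shYap, 2.80% in HFD_WT, 3.96% in LFD_shYap and 5.41% in LFD_WT. Its share was 13.3% to 15.1% in type 1 dendritic cells, 35.4% to 38.0% in type 2 dendritic cells and 56.4% to 78.6% in B cells, so these 4 classes did not overlap. Mature dendritic cells, at 0% to 72.7%, and plasmacytoid dendritic cells, at 6.67% to 28.6%, crossed these ranges. Both rest on few counts, 12 to 179 H2-DM UMIs per library. H2-Oa and H2-Ob together gave 0.905 UMIs per 100 H2-DM UMIs in phagocytes of HFD_shYap, 1.13 in HFD_WT, 0.941 in LFD_shYap and 0.963 in LFD_WT. They gave 10.4 to 14.2 in type 1 dendritic cells, 11.5 to 19.2 in type 2 dendritic cells and 42.5 to 61.0 in B cells. The H2-O genes themselves differed: H2-Ob was at 186 to 253 CPM in B cells and 50.6 to 80.7 CPM in type 2 dendritic cells, whereas H2-Oa was at 87.1 to 152 CPM in B cells and 159 to 277 CPM in type 2 dendritic cells.

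**Figure D5:**
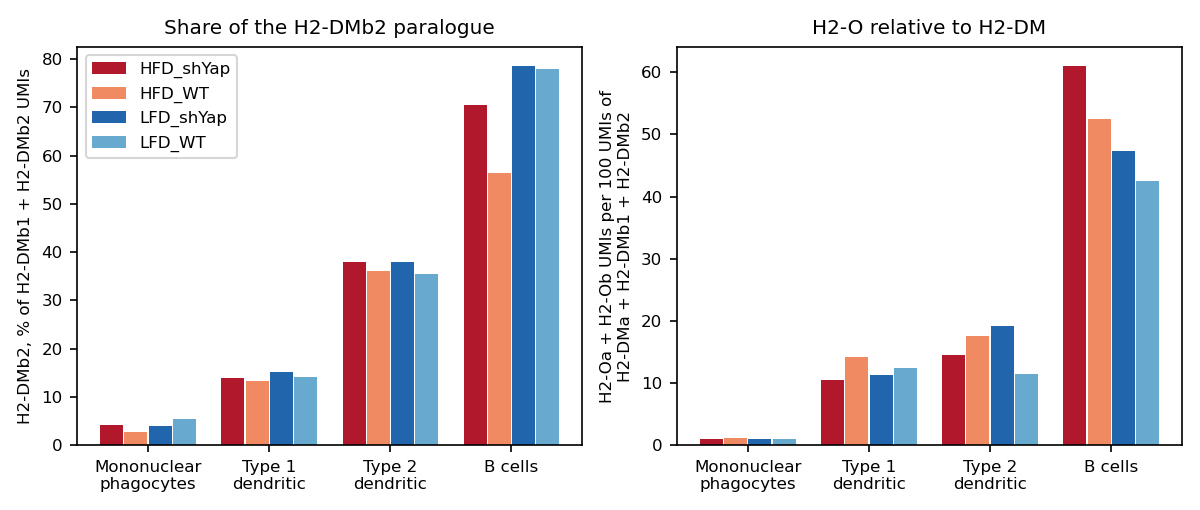
Left, share of H2-DMb2 in the UMIs of H2-DMb1 and H2-DMb2, in percent; right, UMIs of H2-Oa and H2-Ob per 100 UMIs of H2-DMa, H2-DMb1 and H2-DMb2, by cell type, 1 bar per library. Of the types shown, phagocytes are lowest and B cells highest in both panels, and their ranges do not overlap, except between the dendritic subsets on the right.

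Mature dendritic cells stood apart in their balance of chains. H2-Ab1 per H2-Aa UMI was 0.358 in HFD_shYap, 0.548 in HFD_WT, 0.388 in LFD_shYap and 0.454 in LFD_WT, whereas it was 1.07 to 1.18 in type 2 dendritic cells, 1.19 to 1.27 in type 1 dendritic cells and 0.919 to 1.08 in phagocytes. H2-Eb1 per H2-Aa was 0.945 to 1.09 in the same mature cells, against 1.01 to 1.11 in type 2 dendritic cells and 0.918 to 1.03 in phagocytes, so these ranges overlapped where those of H2-Ab1 did not. Mature dendritic cells also had 2.26 to 4.38 H2-DM UMIs per 100 of the classical chains, against 6.00 to 8.25 in the conventional subsets. Cd74 UMIs per UMI of the classical chains were 0.627 to 0.685 in the conventional subsets, 0.859 to 0.966 in phagocytes and 0.995 to 1.07 in B cells. H2-Eb2, a relative of H2-Eb1, was at 95.8 CPM in HFD_shYap, 46.5 CPM in HFD_WT, 39.8 CPM in LFD_shYap and 60.2 CPM in LFD_WT in B cells, from 11 to 36 UMIs, and at most 0.345 CPM in phagocytes.

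The rest of the pathway showed no call for diet in phagocytes, by edgeR over all genes. Of 7 factors that bind class II promoters, 0 were called, with a median log2 fold change of 0.08; Rfxap, of the RFX complex, was at 39.0 and 45.0 CPM in HFD_shYap and HFD_WT, against 43.0 and 34.0 CPM in LFD_shYap and LFD_WT. Of 9 invariant chain proteases and loading enzymes, 0 were called, with a median of -0.05; cathepsin S (Ctss), which trims the invariant chain, was at 2715 and 2795 CPM in the high-fat libraries, against 3100.03 and 2204 CPM in the low-fat ones. Of 9 interferon gamma signalling genes, 0 were called, with a median of 0.41. Of 11 class I presentation genes, 0 were called, with a median of 0.39; B2m, the class I light chain, was at 3218 and 2995 CPM in the high-fat libraries, against 2354 and 2219.8 CPM in the low-fat ones. Of 4 costimulatory genes, 0 were called, with a median of 0.12, and of 3 genes of class II turnover, 0, with a median of 0.01. The all-gene median was -0.01.

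Likeness to the classical chains was ranked by Pearson r of log2(CPM + 1), with the members and class II relatives left out. Across 35 combinations of phagocyte cluster and library, the most alike of 7236 genes were Syngr2 (0.845), Itgax, encoding CD11c (0.830), Klrb1b (0.823), Pecam1 (0.773), Epb41 (0.772) and the class I gene H2-K1 (0.747). Among the members themselves, r was 0.996 for Cd74, 0.958 for H2-DMb1 and 0.858 for H2-DMa. Across 40 combinations of cell type and library, the most alike were Gdi2 (0.946), Tbc1d9 (0.910), Rnase6 (0.909), Cd83 (0.908), Prcp (0.904) and Pkib (0.904). These points share libraries and cell clusters, so r is a description only.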

How the data were processed

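The deposited values are raw UMI counts per gene and barcode from 10x Genomics 3′ libraries (v3.1 chemistry), 1 matrix per library. Per the submitters' processing notes, the tools were STAR 2.5.1 and Cell Ranger 4.0.0, on mm10; the file header instead gives Cell Ranger 6.0.0. Barcodes with at least 200 genes and a mitochondrial share under 15% were kept; this removed 1649 to 2209 barcodes per library on the mitochondrial share. The automatic doublet call of scrublet marked 0 barcodes in 3 libraries and 305 in HFD_WT, so the top-ranked scores were removed instead, at 0.8% per 1000 barcodes, a choice made after seeing those calls. Cells were clustered in scanpy 1.11.5 (2000 variable genes, 30 components, 15 neighbours, Leiden resolution 1) without the members, their class II relatives and sex-linked genes. Clusters were named from marker lists once their leading genes had been seen, and 4 of the 27 stayed unnamed. Among these was cluster 8, of low depth, whose best-scoring markers were those of phagocytes. It held 536 cells of HFD_shYap, 899 of HFD_WT, 803 of LFD_shYap and 1870 of LFD_WT. UMI counts were summed per library and type and tested with edgeR 4.0.16 (TMM, filterByExpr, quasi-likelihood test, Benjamini-Hochberg over all genes tested, threshold 0.05) in a model of diet and tumour line, which leaves 1 residual degree of freedom; DESeq2 1.42.0 was an alternative. Shares of positive cells were taken after thinning to 1000 or 3000 UMIs. Genes outside the members were named as the highest phagocyte CPM of a list or the highest likeness. The members and lists were chosen with earlier results of these data known. Scripts for the tests were tested on simulated data. A result that concerns an item withheld for evaluation is not reported here.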

Additional observations from a re-analysis of the deposited data

Results flagged for a closer look

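The diet difference (high-fat over low-fat, log2) was larger in phagocytes than in dendritic cells for 9 of 10 members, in a test of the difference itself added after the data were seen. The excess was 1.80 for H2-Ab1, 1.76 for H2-Aa, 1.83 for H2-Eb1 and 1.60 for Cd74. It was 1.54 for Ciita, 1.22 for H2-DMb1, 0.90 for H2-Oa, 0.69 for H2-DMb2 and 0.62 for H2-DMa. Against B cells, the excess was 1.83 for H2-Ab1, 1.73 for H2-Aa, 1.75 for H2-Eb1 and 1.58 for Cd74. The contrast with dendritic cells called 0 members when LFD_shYap was assigned to the high-fat diet by its treatment field, where 0.0% of all genes were called, whereas the contrast with B cells called 4 under that reading (0.143% of all genes).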

How the results depend on the processing

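No paired analysis was possible because each combination of diet and tumour line has 1 library, so that replicate numbers pair no samples; the library block in the contrasts of cell types pairs cell types and not replicates. The number of members called for diet in phagocytes was 1 (0.409% of all genes). With 1 library left out, diet alone was in the model, and a diet left with a lone library was assumed to vary like the other. The number then ranged from 0 to 6: 0 without HFD_shYap (0.0546% of all genes) or HFD_WT (0.0963%), 6 without LFD_shYap (1.31%) and 5 without LFD_WT (2.35%). It was 2 with DESeq2 (1.06%), 6 with no filter on low counts (1.59%) and 4 with the Y-linked cells of HFD_shYap (0.954%). It was 0 with its Xist cells (0.218%), with the treatment field of LFD_shYap (0.0%), without doublet removal (0.429%), with the low-depth cluster counted as phagocytes (0.379%) or with members kept in clustering (0.381%). No member changed direction there under these alternatives. Over all kept cells, 0 became 9 with DESeq2 (2.32% of all genes), 8 with no filter (1.59%), and 0 to 6 with 1 library left out (6 without LFD_shYap, 2.21%, and 5 without LFD_WT, 2.64%). The contrast of phagocytes with dendritic cells called 9 members (0.488% of all genes) and 0 with the treatment field, where no gene was called (0.0%). It called 6 to 10 members with 1 library left out, where 0.562% to 1.17% of all genes were called. The cause of these changes was not tested.

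The ratio of the classical chains was 5.31 for HFD_WT over LFD_WT with the members left out of the total. HFD_shYap over LFD_shYap was 2.39 with Xist cells and 1.96 with Y-linked cells, and HFD_shYap over HFD_WT was 0.758 and 0.624. The percent of the difference from levels within clusters was 65.1 (resolution 2) and 52.8 (members kept in clustering) for HFD_WT over LFD_WT, 48.7 and 51.4 for HFD_shYap over LFD_shYap, 59.3 and 58.4 for HFD_shYap over HFD_WT, and 42.6 and 1.41 for LFD_shYap over LFD_WT, where resolution 0.5 gave 45.2. The percent of positive phagocytes in HFD_shYap, HFD_WT, LFD_shYap and LFD_WT was 92.8, 96.9, 75.1 and 63.0 without thinning and 76.2, 86.2, 53.7 and 43.6 at 3000 UMIs. UMIs per positive phagocyte were 68.2, 85.6, 34.7 and 19.4 without thinning and 17.9, 25.6, 12.9 and 10.9 at 3000 UMIs.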
